A study of Mus musculus with 34 samples.

Results

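Receptors for glutamate and GABA are built from subunits encoded by many genes, and 44 mouse genes of this kind were described here, out of 49069 genes in the 4 tables of expression values used. They were all rows whose symbol begins with Gria, Grik, Grin or Grm and a digit, or with Gabr and a, b, d, e, g, p, q or r. The set held 4 AMPA, 5 kainate, 7 NMDA and 8 metabotropic glutamate receptor genes, 19 GABA-A receptor genes, and Grin1os, an RNA transcribed opposite to Grin1. Of the 44, 43 are annotated as protein-coding. The first neuronal table and that of the P24 library listed all 44, with 43 in the second neuronal table (without Grin1os) and 41 in the table of XEN-like cells (without Grin1os, Gabra6 and Gabrr3).

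RNA sequencing had been done on poly-A RNA of mouse cells from a study that used chemicals to bring embryonic fibroblasts to a XEN-like state, named after extraembryonic endoderm, and onward to neuronal cells. The first neuronal table held 1 library each of TauEGFP+ colonies, cells labelled as induced with FICB, primary cortical neurons, brain and fibroblasts, and the second held a further library of TauEGFP+ colonies and a further one labelled primary cortical neurons. TauEGFP+ colonies are chemically induced cells marked by a fluorescent reporter in Mapt, the gene of the axonal protein tau, and the colonies of the second table are also labelled as derived from XEN-like cells at P2. All groups carried the Mapttm2(EGFP)Klt/J strain background except primary neurons, which came from C57BL/6 mice. Strain and group therefore cannot be told apart in any comparison with primary neurons. Another table held 8 XEN-like colonies, 3 libraries named F25 (P5, P8 and P13) and 2 named s39 (P3 and P17), called lines here although F25 is also described as a colony, 1 of eXEN cells at P8 (described as chemically derived, with mouse embryonic XEN cells as their source) and 2 of fibroblasts, and the last held 1 library of XEN-derived neuronal cells at P24. Doses, ages, pooling of animals and the number of animals are not given in the sources used here, and 2 libraries of a group may be technical repeats. Levels are the authors' FPKM (fragments per kilobase of gene, scaled to the library's total), which allow genes of different length to be compared within a library. Because the tables were made separately, differences are given within a table, on the log2(FPKM + 1) scale, which understates changes of low genes.

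Glutamate opens AMPA, kainate and NMDA receptors, which are cation channels assembled from several subunits and carry most fast excitation in the brain, while metabotropic glutamate receptors act through G proteins. GABA-A receptors are chloride channels, most often of alpha, beta and gamma subunits, and carry most fast inhibition. Which subunits a cell makes sets the kinetics, the ion selectivity and the drug sensitivity of its receptors.

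In TauEGFP+ colonies 1, 16 of the 44 genes were at least 2-fold higher than in fibroblasts 1 and 0 lower, on the scale above, against 25.2% and 8.56% of all genes at 1 FPKM. Against primary neurons 1 the same colonies were higher for 4 genes and lower for 8, against 24.7% and 14.5% of all genes. Primary neurons 1 were higher than brain for 0 genes and lower for 26, against 11.7% and 13.8%. With 1 library in each group these are differences between libraries, without a test. Genes could enter a count through the library where they were high. The counts are therefore no support for a difference of the set.

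Some libraries went against their labels. The library labelled primary neurons 2 held the neuronal genes Snap25, Stmn2 and Dcx at 0.0549, 1.012 and 0.476 FPKM, against 35.2, 383 and 84.3 FPKM in primary neurons 1. The neuronal genes Map2 and Mapt were higher than these, at 61.0 and 11.8 FPKM, against 239 and 236 in primary neurons 1. The library labelled primary neurons 2 also held the astrocyte gene Gfap at 2688 FPKM, the astrocyte water channel Aqp4 at 122 and the microglial genes C1qa and Cx3cr1 at 1150 and 106. All 6 microglial markers reached 1 FPKM there, with a sum of 1476 FPKM, as did 6 of 7 astrocyte markers (3150), 7 of 8 oligodendrocyte markers (288) and 5 of 9 neuronal markers (78.1). In TauEGFP+ colonies 2 the sums were 37.1 FPKM for microglial, 46.7 for astrocyte, 12.7 for oligodendrocyte and 896 for neuronal markers, with 4 of 6 microglial markers listed at 0. The P24 library, labelled neuronal, held the liver genes Alb and Apoa1 at 1429 and 1019 FPKM and the neuronal gene Map2 at 0.767 FPKM, with Rbfox3 listed at 0. Both libraries are therefore named by their labels throughout, and results are given with and without the library labelled primary neurons 2. All 8 fibroblast markers reached 1 FPKM in both TauEGFP+ libraries and in FICB cells, with sums of 1444 FPKM in TauEGFP+ colonies 1, 3948 in TauEGFP+ colonies 2, 2155 in FICB cells, 20.3 in primary neurons 1, 235 in brain and 4557 in fibroblasts 1. The 6 markers of extraembryonic endoderm summed to 165 FPKM in TauEGFP+ colonies 1, 22.5 in TauEGFP+ colonies 2, 56.7 in FICB cells and 28.8 in fibroblasts 1. Primary neurons 1 held all 6 microglial and all 4 endothelial markers at 1 FPKM, with sums of 45.2 and 92.8 FPKM. What part these other cells had in the receptor levels was not tested. Total counts are not known. The apparent depth, judged from the smallest values of single-exon genes, ranged from 6.3 M to 13 M fragments a library. None of 16 genes that nearly all cells use was listed at 0 in any library.

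**Figure D1:**
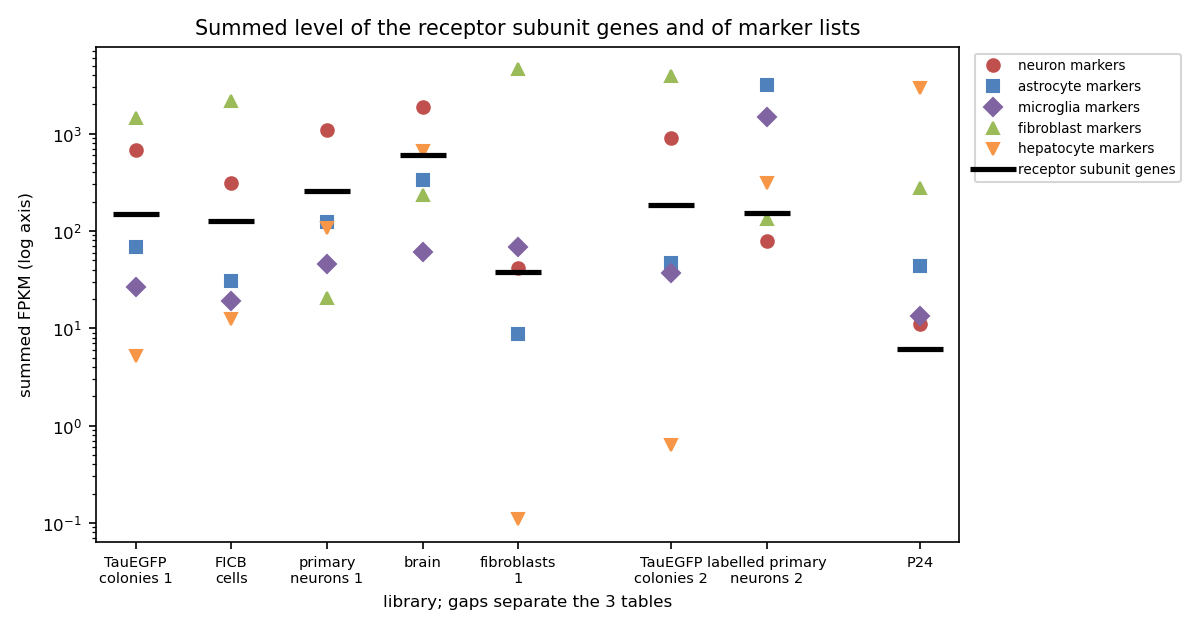
Summed FPKM (log axis) of the receptor subunit genes (black dashes) and of 5 marker lists (symbols) in each neuronal library, 1 library a position, with gaps between tables. The receptor genes sum to 149 FPKM in TauEGFP+ colonies 1 and 598 in brain, against 38.2 in fibroblasts 1, and the library labelled primary neurons 2 stands apart by its astrocyte and microglial markers.

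The number of receptor genes at 1 FPKM or more was 23 in TauEGFP+ colonies 1, 14 in FICB cells, 25 in primary neurons 1, 35 in brain and 5 in fibroblasts 1. In the second table it was 19 in TauEGFP+ colonies 2 and 16 in the library labelled primary neurons 2. At 10 FPKM or more the count was 4 in TauEGFP+ colonies 1, 5 in FICB cells, 5 in primary neurons 1, 19 in brain and 2 in fibroblasts 1, and 8 in TauEGFP+ colonies 2 and 5 in the library labelled primary neurons 2. Grik5, Grin1 and Gria3 were among those at 10 FPKM in TauEGFP+ colonies 1. Both TauEGFP+ libraries held 17 of the genes at 1 FPKM, among them all 4 AMPA genes, all 5 kainate genes, Grin1, Grin2d, Grm4, Grm8, Gabra3 and Gabrb2. A further 6 reached it in TauEGFP+ colonies 1 alone of these libraries (Gabra2, Gabra5, Gabre, Gabrq, Grin2b and Grm7) and 2 in TauEGFP+ colonies 2 alone (Grin3a and Grm5). Of the 44 genes, 34 had their highest level of the first table in brain, 5 in primary neurons 1, 3 in TauEGFP+ colonies 1 and 1 (Gria3) in FICB cells, while Gabra6, a subunit of cerebellar granule cells, was listed at 0 in all 7 neuronal libraries. The shares of all genes at 10 FPKM, or highest in each library, were not computed, so those counts are no result about the set. Because these are bulk samples, fewer cells of a type and less RNA per cell cannot be told apart.

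**Figure D2:**
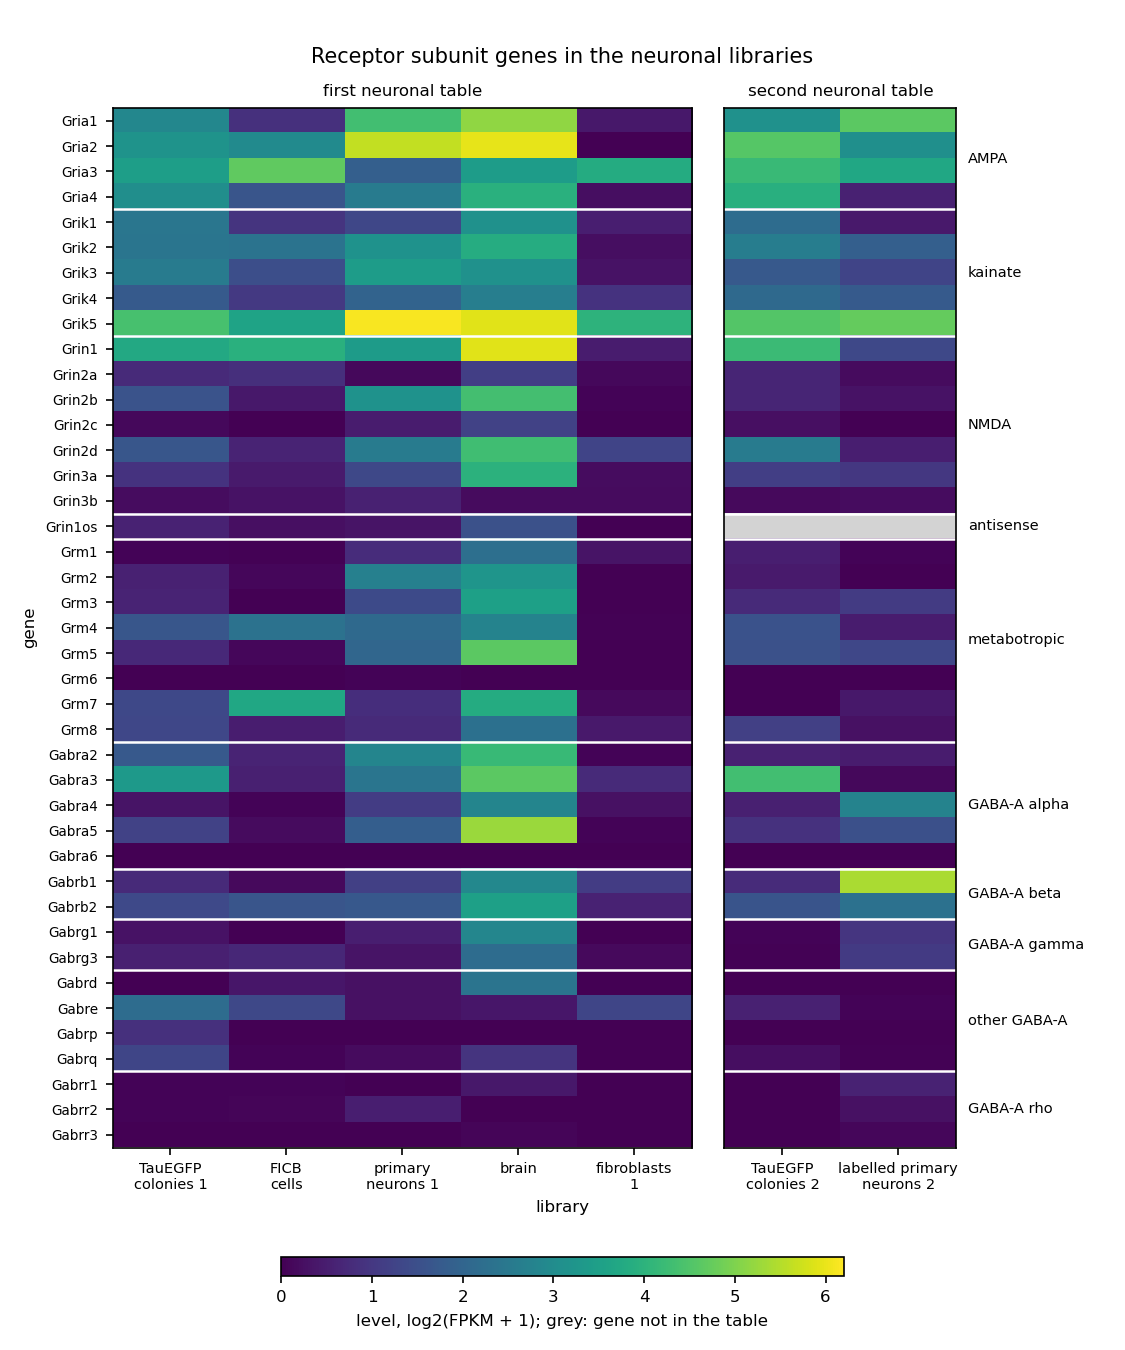
Level of 41 of the 44 genes (rows, grouped by family) as log2(FPKM + 1) in the 7 neuronal libraries (columns, 1 library each), with grey for a gene that the table does not list. Brain holds the most genes at high levels and fibroblasts 1 hold Gria3 and Grik5 at 12.996 and 15.1 FPKM and little else.

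Of the 4 AMPA receptor genes 3 were more than 2-fold higher in TauEGFP+ colonies 1 than in fibroblasts 1, all but Gria3. Gria1 encodes a subunit that enters synapses during potentiation. It had 6.299 FPKM in TauEGFP+ colonies 1, 0.818 in FICB cells, 19.1 in primary neurons 1, 35.3 in brain and 0.326 in fibroblasts 1, and 7.76 FPKM in TauEGFP+ colonies 2 and 24.1 in the library labelled primary neurons 2. Gria2 encodes the subunit that, after editing of its RNA, makes AMPA receptors nearly impermeable to calcium. Its level was 8.16 FPKM in TauEGFP+ colonies 1, 6.77 in FICB cells, 48.5 in primary neurons 1, 61.2 in brain and 0 in fibroblasts 1. In the second table Gria2 had 22.5 FPKM in TauEGFP+ colonies 2 and 7.55 in the library labelled primary neurons 2. Fibroblasts 1 stood apart with no Gria2 listed, and TauEGFP+ colonies 1 were below primary neurons 1 while TauEGFP+ colonies 2 were above the library labelled primary neurons 2. Gria3 was the one AMPA gene with a high level in fibroblasts. It had 10.03 FPKM in TauEGFP+ colonies 1, 24.8 in FICB cells, 2.66 in primary neurons 1, 9.74 in brain and 12.996 in fibroblasts 1, and 17.3 FPKM in TauEGFP+ colonies 2 and 11.9 in the library labelled primary neurons 2. Gria4, abundant early in development and in interneurons, had 7.35 FPKM in TauEGFP+ colonies 1, 2.09 in FICB cells, 4.93 in primary neurons 1, 14.3 in brain and 0.177 in fibroblasts 1. It had 14.1 FPKM in TauEGFP+ colonies 2 and 0.472 in the library labelled primary neurons 2. The make-up of the family differed accordingly. Gria2 formed 25.6% of the summed AMPA FPKM in TauEGFP+ colonies 1, 19.7% in FICB cells, 64.6% in primary neurons 1 and 50.8% in brain, and 36.4% in TauEGFP+ colonies 2. Gria3 formed 31.5%, 71.9%, 3.54% and 8.08% in the same 4 libraries of the first table, 28.1% in TauEGFP+ colonies 2 and 96.3% in fibroblasts 1.

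Gria2 lies on chromosome 3 (mm10, 80681450 to 80802835, minus strand). Its promoter is shown because Gria2 is listed at 0 in fibroblasts 1 and is the highest of the 44 genes in brain. The bases before its start (RefSeq, GRCm38.p6, chr3:80802836-80803085, minus strand, 5′ to 3′) follow, with a match to the RE1 element in capitals.
Gria2: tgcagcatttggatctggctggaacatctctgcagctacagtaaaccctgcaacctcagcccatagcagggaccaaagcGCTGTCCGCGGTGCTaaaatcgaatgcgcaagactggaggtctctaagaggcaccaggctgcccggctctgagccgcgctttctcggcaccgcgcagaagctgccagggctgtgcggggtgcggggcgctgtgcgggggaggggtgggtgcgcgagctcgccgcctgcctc
RE1 is the element bound by REST, a repressor of neuronal genes in cells that are not neurons. The search took its parts AGCACC and GGACAGC with 2 bases between them, on both strands, and the match at positions -171 to -157 counted from the start is on the opposite strand. Of 32851 promoter windows of 250 bases, 9 (0.0274%) held these letters, and of 38 windows of the 31 receptor genes that the promoter table holds, only that of Gria2 did. The match describes the letters of the window and no binding was measured here.

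**Figure D3:**
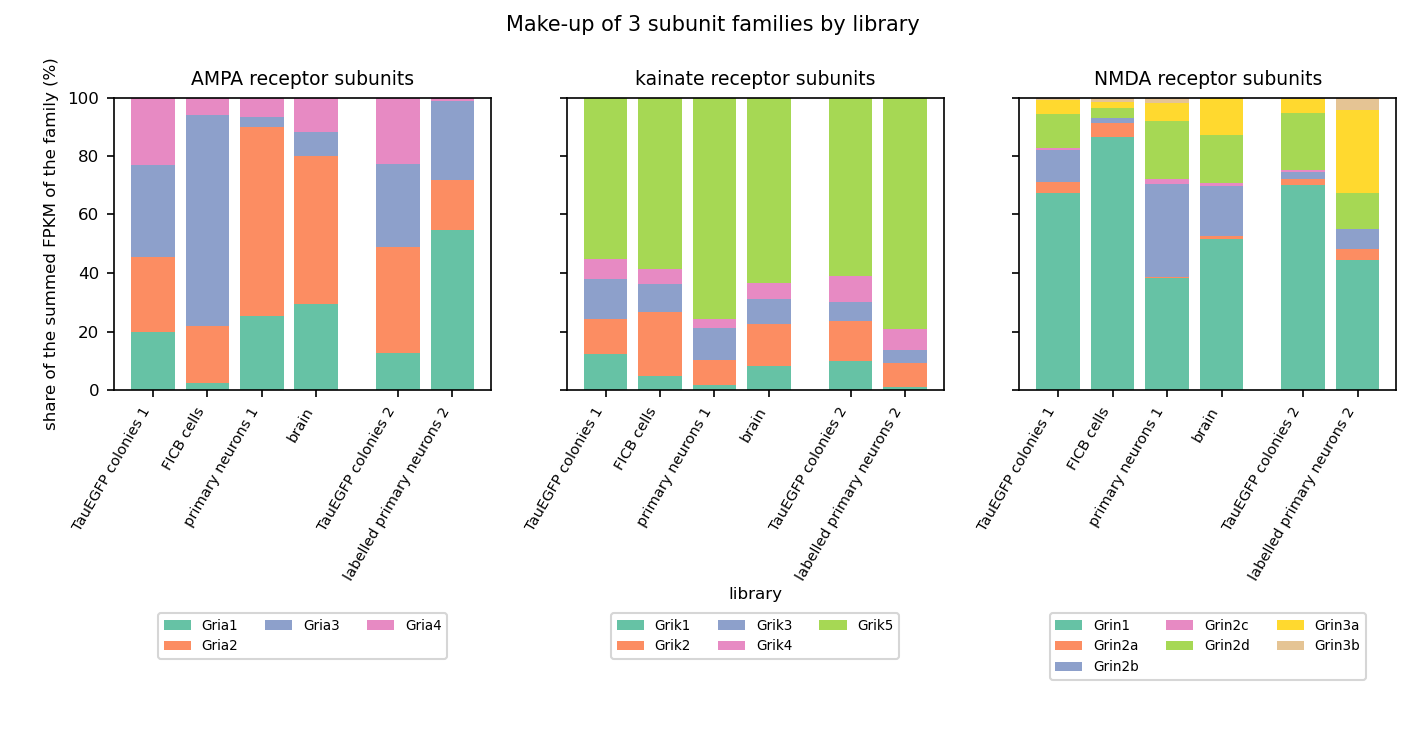
Share of the summed FPKM of the AMPA, kainate and NMDA families (vertical axis, percent) taken by each gene in 6 neuronal libraries, with a gap between tables. Gria2 makes up 25.6% of the AMPA sum in TauEGFP+ colonies 1 against 64.6% in primary neurons 1, and Grik5 55.3% of the kainate sum against 75.7%.

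Among kainate receptor genes the levels were led in every neuronal library by Grik5, an auxiliary-type subunit that needs Grik1, Grik2 or Grik3 proteins to form a channel. Grik5 had 19.96 FPKM in TauEGFP+ colonies 1, 11.1 in FICB cells, 69.03 in primary neurons 1, 59.4 in brain and 15.1 in fibroblasts 1, and 22.3 FPKM in TauEGFP+ colonies 2 and 25.8 in the library labelled primary neurons 2. Its level in TauEGFP+ colonies 1 and in FICB cells was within 2-fold of that in fibroblasts 1, and primary neurons 1 and brain stood above them. Grik2, which forms channels by itself and is edited like Gria2, had 4.35 FPKM in TauEGFP+ colonies 1, 4.14 in FICB cells, 7.91 in primary neurons 1, 13.4 in brain and 0.173 in fibroblasts 1, and 5.13 FPKM in TauEGFP+ colonies 2 and 2.68 in the library labelled primary neurons 2. Grik3 had 4.95 FPKM in TauEGFP+ colonies 1, 1.81 in FICB cells, 9.85 in primary neurons 1, 7.81 in brain and 0.234 in fibroblasts 1, and 2.32 FPKM in TauEGFP+ colonies 2 and 1.43 in the library labelled primary neurons 2. Both were under 1 FPKM in fibroblasts 1 and above it in all other neuronal libraries. Grik1 was at 4.43 FPKM in TauEGFP+ colonies 1 against 1.503 in primary neurons 1, and at 3.58 in TauEGFP+ colonies 2 against 0.344 in the library labelled primary neurons 2. Grik5 took 55.3% of the summed kainate FPKM in TauEGFP+ colonies 1, 58.5% in FICB cells, 75.7% in primary neurons 1 and 63.4% in brain. Of the 43 genes in both tables, Grik1 was the one with a log2(FPKM + 1) difference of 1 or more in favour of the TauEGFP+ library in each. The FPKM ratio itself was also above 2 in each table for Gabra3 (2.14 and 211) and Grm8, and for Gabre, Gabrq and Grin2a, which were under 1 FPKM in the second table. The ratio of 211 divides by 0.0901 FPKM, a value near the floor, in the library labelled primary neurons 2. Grm8 was under 1 FPKM in both libraries labelled primary neurons. Grik4, the other subunit that does not form channels alone, ranged from 0.876 FPKM in fibroblasts 1 to 5.28 in brain.

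NMDA receptors always contain the Grin1 subunit and detect coincident glutamate and depolarisation. Grin1 had 12.3 FPKM in TauEGFP+ colonies 1, 14.2 in FICB cells, 9.56 in primary neurons 1, 59.1 in brain and 0.388 in fibroblasts 1, and 17.9 FPKM in TauEGFP+ colonies 2 and 1.55 in the library labelled primary neurons 2. Its levels in TauEGFP+ colonies 1 and FICB cells were above that of primary neurons 1 by less than 2-fold, and that of brain stood apart above them. Grin1 and Grin1os overlap on opposite strands with 1307 shared exon bases, and strand use in counting is not given in the sources used here, so their reads cannot be told apart. Grin1os reached 1.93 FPKM in brain and at most 0.502 in the other libraries of the first table. The partner subunits, which bind glutamate and set channel kinetics, were lower than Grin1 in both TauEGFP+ libraries. Grin2b, the main partner before birth, had 2.003 FPKM in TauEGFP+ colonies 1, 0.311 in FICB cells, 7.94 in primary neurons 1, 19.4 in brain and 0.0421 in fibroblasts 1, and 0.547 FPKM in TauEGFP+ colonies 2 and 0.242 in the library labelled primary neurons 2. Grin2d, another early partner, had 2.14 FPKM in TauEGFP+ colonies 1, 0.547 in FICB cells, 4.98 in primary neurons 1, 18.6 in brain and 1.41 in fibroblasts 1, and 4.98 FPKM in TauEGFP+ colonies 2 and 0.423 in the library labelled primary neurons 2. Grin2a, the partner that rises after birth, was under 1 FPKM in all neuronal libraries except brain, where it had 1.22 FPKM. Grin3a, a subunit that lowers calcium entry, had 0.881 FPKM in TauEGFP+ colonies 1, 0.359 in FICB cells, 1.53 in primary neurons 1, 14.7 in brain and 0.144 in fibroblasts 1, and 1.24 FPKM in TauEGFP+ colonies 2 and 0.993 in the library labelled primary neurons 2. Grin1 took 67.5% of the summed NMDA FPKM in TauEGFP+ colonies 1, 86.4% in FICB cells, 38.3% in primary neurons 1 and 51.6% in brain, and 70.04% in TauEGFP+ colonies 2. Grin2b took 10.96%, 1.897%, 31.8% and 16.96% in those 4 libraries of the first table.

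Metabotropic glutamate receptor genes summed to 6.89 FPKM in TauEGFP+ colonies 1, 16.5 in FICB cells, 15.7 in primary neurons 1, 69.7 in brain and 0.744 in fibroblasts 1. Grm7, a presynaptic receptor that restrains release, had 1.53 FPKM in TauEGFP+ colonies 1, 11.9 in FICB cells, 0.754 in primary neurons 1, 13.2 in brain and 0.117 in fibroblasts 1, and 0 FPKM in TauEGFP+ colonies 2 and 0.321 in the library labelled primary neurons 2. It made up 71.8% of the family sum in FICB cells and was listed at 0 in TauEGFP+ colonies 2. Grm5, which couples to calcium release and is made by neurons and young astrocytes, had 0.6502 FPKM in TauEGFP+ colonies 1, 0.0739 in FICB cells, 3.11 in primary neurons 1, 24.1 in brain and 0 in fibroblasts 1, and 1.91 FPKM in TauEGFP+ colonies 2 and 1.51 in the library labelled primary neurons 2. Grm3, found in neurons and astrocytes, had 0.539 FPKM in TauEGFP+ colonies 1, 0 in FICB cells, 1.63 in primary neurons 1, 10.5 in brain and 0 in fibroblasts 1, and 0.6804 FPKM in TauEGFP+ colonies 2 and 1.098 in the library labelled primary neurons 2. Both were highest in brain among these libraries. Grm4, another presynaptic receptor, was at 2.17 FPKM in TauEGFP+ colonies 1, 4.06 in FICB cells, 3.31 in primary neurons 1, 5.795 in brain and 0.0338 in fibroblasts 1. Grm2 had 0.481 FPKM in TauEGFP+ colonies 1 and 5.46 in primary neurons 1. Grm6, the receptor of retinal ON bipolar cells, stayed at or below 0.0485 FPKM in all 7 libraries.

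GABA-A alpha subunits form the GABA site with beta subunits and decide where the receptor sits and which drugs bind it. Gabra3 had 9.24 FPKM in TauEGFP+ colonies 1, 0.459 in FICB cells, 4.33 in primary neurons 1, 23.99 in brain and 0.673 in fibroblasts 1, and 18.97 FPKM in TauEGFP+ colonies 2 and 0.0901 in the library labelled primary neurons 2. TauEGFP+ colonies 1 were above primary neurons 1, TauEGFP+ colonies 2 were above the library labelled primary neurons 2, and brain was the highest of the first table. Gabra2 had 2.33 FPKM in TauEGFP+ colonies 1, 0.541 in FICB cells, 6.03 in primary neurons 1, 17.1 in brain and 0.0429 in fibroblasts 1, and 0.472 FPKM in TauEGFP+ colonies 2 and 0.397 in the library labelled primary neurons 2. Gabra5, known for receptors outside synapses in hippocampus and cortex, had 1.35 FPKM in TauEGFP+ colonies 1, 0.138 in FICB cells, 2.59 in primary neurons 1, 37.7 in brain and 0.0383 in fibroblasts 1, and 0.8398 FPKM in TauEGFP+ colonies 2 and 1.84 in the library labelled primary neurons 2. Brain stood above the other libraries of the first table for both. Gabra4 had 0.248 FPKM in TauEGFP+ colonies 1, 0.04295 in FICB cells, 1.15 in primary neurons 1, 6.02 in brain and 0.215 in fibroblasts 1, and 0.461 FPKM in TauEGFP+ colonies 2 and 5.87 in the library labelled primary neurons 2.

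Of the beta subunits, which are needed for the receptor to reach the cell surface, Gabrb2 had 1.601 FPKM in TauEGFP+ colonies 1, 2.103 in FICB cells, 2.25 in primary neurons 1, 10.5 in brain and 0.502 in fibroblasts 1, and 2.07 FPKM in TauEGFP+ colonies 2 and 3.995 in the library labelled primary neurons 2. Gabrb1 had 0.675 FPKM in TauEGFP+ colonies 1, 0.117 in FICB cells, 1.25 in primary neurons 1, 6.44 in brain and 1.14 in fibroblasts 1, and 0.7097 FPKM in TauEGFP+ colonies 2 and 41.6 in the library labelled primary neurons 2. It was the highest of the 43 genes in the library labelled primary neurons 2. Gabrb1 and Gabra4, on opposite strands, share 46 exon bases, so a part of their reads could be assigned to either.

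The gamma subunit places the receptor at synapses and completes the benzodiazepine site. Gabrg1 had 0.229 FPKM in TauEGFP+ colonies 1, 0 in FICB cells, 0.444 in primary neurons 1, 6.14 in brain and 0 in fibroblasts 1, and 0.0493 FPKM in TauEGFP+ colonies 2 and 0.932 in the library labelled primary neurons 2. Gabrg3 had 0.465 FPKM in TauEGFP+ colonies 1, 0.612 in FICB cells, 0.2499 in primary neurons 1, 3.55 in brain and 0.111 in fibroblasts 1, and 0.0234 FPKM in TauEGFP+ colonies 2 and 1.06 in the library labelled primary neurons 2. Brain was above 1 FPKM for both. Of the rarer subunits Gabrd, which marks receptors outside synapses, was at 0 FPKM in TauEGFP+ colonies 1, 0.296 in FICB cells, 0.2202 in primary neurons 1, 4.18 in brain and 0 in fibroblasts 1, and it was listed at 0 in both libraries of the second table. Gabre had 3.598 FPKM in TauEGFP+ colonies 1, 1.55 in FICB cells, 0.2198 in primary neurons 1, 0.303 in brain and 1.46 in fibroblasts 1, and 0.495 FPKM in TauEGFP+ colonies 2 and 0.0505 in the library labelled primary neurons 2. Gabrq had 1.47 FPKM in TauEGFP+ colonies 1, 0.0355 in FICB cells, 0.127 in primary neurons 1 and 0.906 in brain, was listed at 0 in fibroblasts 1, and had 0.166 FPKM in TauEGFP+ colonies 2 and 0.0218 in the library labelled primary neurons 2. Gabre and Gabrq lie with Gabra3 in 1 cluster on the X chromosome. Gabrp, a subunit of epithelia, was at 0.804 FPKM in TauEGFP+ colonies 1 and 0 in the other libraries of both neuronal tables. In the P24 library, which stands in another table, Gabrp had 0.740 FPKM. The retinal rho subunits Gabrr1, Gabrr2 and Gabrr3 stayed under 1 FPKM in all libraries of both neuronal tables.

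Most GABA-A genes sit in clusters, and the summed levels of 2 of the clusters are given here. The X cluster (mm10, 72255999 to 72842602, with Gabre, Gabra3 and Gabrq) summed to 14.3 FPKM in TauEGFP+ colonies 1, 2.04 in FICB cells, 4.67 in primary neurons 1, 25.2 in brain and 2.13 in fibroblasts 1. In the second table it summed to 19.6 FPKM in TauEGFP+ colonies 2 and 0.162 in the library labelled primary neurons 2. The cluster on chromosome 5 (70751047 to 72149037, with Gabrg1, Gabra2, Gabra4 and Gabrb1) gave 3.49 FPKM in TauEGFP+ colonies 1, 0.701 in FICB cells, 8.88 in primary neurons 1, 35.7 in brain and 1.39 in fibroblasts 1, and 1.69 FPKM in TauEGFP+ colonies 2 against 48.8 in the library labelled primary neurons 2.

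The comparison with fibroblasts asks which receptor genes the induced cells gained. In TauEGFP+ colonies 1 against fibroblasts 1, 24 of the 44 genes reached 1 FPKM in at least 1 of the pair, and 16 of these were higher by a log2 difference of 1 or more and 0 lower. Over all 15010 genes at that level the shares were 25.2% higher and 8.56% lower. Of the 24, 19 reached 1 FPKM through TauEGFP+ colonies 1 alone, so neither the count nor the median is support for a difference of the set. The median log2 difference was 1.57 over the 24 genes and 0.31 over all genes. It was 0.85 over the 40 members with no filter on low values, and 3.74 over the 24 with a pseudocount of 0.1. Among the larger differences were those of Grin1 (3.26), Gria2 (3.20), Gria4 (2.83) and Gabra3 (2.61). Those with a log2(FPKM + 1) difference under 1 in size were Gabrb1, Gabrb2, Gabre, Gria3, Grik4, Grik5, Grin2d and Grm8. Of these 8, all but Gabrb2, Grik4 and Grm8 were at 1 FPKM or more in fibroblasts 1, and the FPKM ratio itself was above 2 for Grm8 (4.34), Gabrb2 (3.19), Grik4 (2.72) and Gabre (2.46). In FICB cells against fibroblasts 1, 16 genes reached 1 FPKM, 10 of them higher and 0 lower, against 15.6% and 11.4% of 13778 genes, with a median of 1.29 over the 16 and 0.07 over all. Of the 16, 11 reached 1 FPKM through FICB cells alone, and the median was 0.33 over 37 members with no filter and 2.75 with a pseudocount of 0.1. Grm7 (3.53), Grin1 (3.45) and Gria2 (2.96) were among the larger log2 differences there. Because both comparisons use the same fibroblast library, their likeness is not a result.

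The 2 kinds of induced cells were compared directly. Of 24 genes at 1 FPKM, 11 were higher in TauEGFP+ colonies 1 than in FICB cells and 3 lower, against 17.2% and 4.75% of 14896 genes. After scaling by the median ratio between libraries 7 were higher and 3 lower. Of the 24, 10 reached 1 FPKM through TauEGFP+ colonies 1 alone and 1 through FICB cells alone. The count is therefore no support for a difference of the set. Gabra3 (2.81), Gria1 (2.01), Grik1 (1.502) and Gria4 (1.44) were among the larger positive log2 differences, and Grm7 (-2.35) and Gria3 (-1.22) among the lower genes. Gria2, Grik2 and Grin1 lay within 0.24 of 0 in either direction.

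The library labelled primary neurons 2 held neuronal markers at a sum of 78.1 FPKM, against 1087 in primary neurons 1. Whether the colonies reach the levels of primary neurons was therefore asked in the first table alone. There 29 genes reached 1 FPKM, and 4 were higher in TauEGFP+ colonies 1 than in primary neurons 1 (Gabre, Gria3, Gabrq and Grik1) and 8 lower (among them Gria2, Grm2, Grik5, Grin2b, Gria1, Grm5 and Gabra2), against 24.7% and 14.5% of 15670 genes. The log2 difference was -2.44 for Gria2 and 1.59 for Gria3. The second neuronal table sets TauEGFP+ colonies 2 against the library labelled primary neurons 2. Their titles name different sequencing flow cells (HJMKLALXX and HVNJMCCXX), so flow cell and group cannot be told apart there. Of all 43 listed, 24 genes reached 1 FPKM, and 8 were higher in TauEGFP+ colonies 2 than in the library labelled primary neurons 2 (among them Gabra3, Gria4, Grin1, Grin2d, Grik1, Gria2 and Grm4) and 4 lower (Gabrb1, Gabra4, Gria1 and Gabrg3), against 19.7% and 21.0% of 14300 genes. Gria2 had log2 differences of opposite sign in the 2 tables, at -2.44 in the first and 1.46 in the second. Gria1 was lower in the TauEGFP+ library of both, with log2 differences of -1.46 and -1.52. Of the 29 genes of the first table, 4 reached 1 FPKM through TauEGFP+ colonies 1 alone and 6 through primary neurons 1 alone. Of the 24 of the second, 8 did so through TauEGFP+ colonies 2 alone and 5 through the library labelled primary neurons 2 alone. The neuronal markers summed to 1087 FPKM in primary neurons 1 and 78.1 in the library labelled primary neurons 2, the astrocyte markers to 122 and 3150, and the part of these in the differences was not tested.

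The 4 libraries labelled TauEGFP+ colonies or primary neurons were also fitted together with limma, with the table as a block, and the fit includes the library labelled primary neurons 2. The flow cell of that library differed from that of TauEGFP+ colonies 2, and the fit has no term for it. Of 13625 genes tested, 0 (0.0%) were called higher and 0 (0.0%) lower in TauEGFP+ colonies (adjusted p under 0.05, log2 difference 1 or more), and 750 had an unadjusted p under 0.05. None of the 25 receptor genes tested was called or had an unadjusted p under 0.05, and their median log2 difference was -0.13, against 0.13 over all genes. The estimates closest to the threshold were those of Gabra3, at 2.57 ± 1.04 (SE, unadjusted p = 0.0576, adjusted p = 0.933), and of Gria1, at -1.49 ± 0.67 (unadjusted p = 0.0794, adjusted p = 0.976), with Gabra3 higher and Gria1 lower in 2 of 2 TauEGFP+ libraries. In simulated data of this size the fit recovered 22% of genes changed by log2 2 and 100% of those changed by log2 4. It also called 0.447% of the unchanged genes. The simulated spread of each gene was the estimate already smoothed across genes by the fit. Recovery in the real data may therefore be lower, and the simulation does not show that larger differences are absent. Without the second pair the median over the 25 genes was -0.61, and without the first pair, which leaves the library labelled primary neurons 2 as the sole library set against the colonies, it was 0.38.

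**Figure D4:**
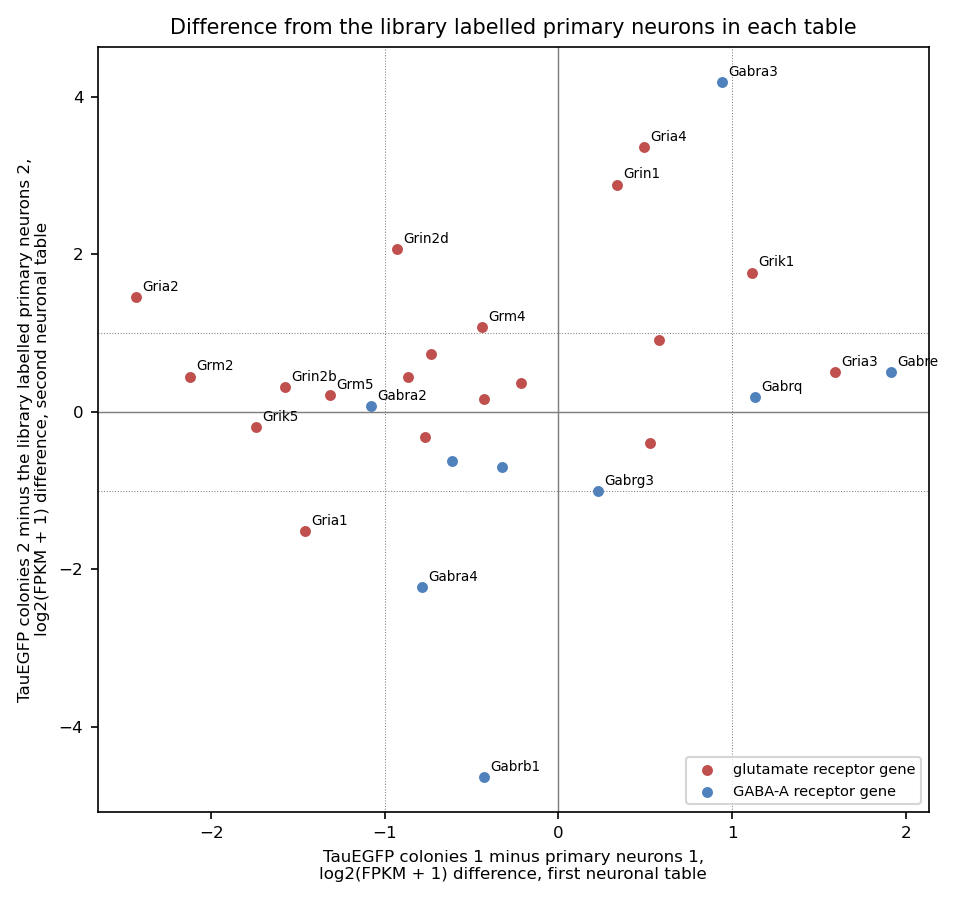
Log2(FPKM + 1) difference of TauEGFP+ colonies 1 against primary neurons 1 (horizontal axis) and of TauEGFP+ colonies 2 against the library labelled primary neurons 2 (vertical axis), 1 point for each gene shown at 1 FPKM in either comparison, 1 library a group in each table, with dotted lines at a log2 difference of 1. Names mark genes past 1 in either table; Grik1 is higher and Gria1 lower in both, and Gria2 has opposite signs.

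Primary neurons 1 were also set against brain, and both libraries held markers of several cell types. Of 35 genes at 1 FPKM, 0 were higher and 26 lower in primary neurons 1 than in brain by a log2 difference of 1 or more, against 11.7% and 13.8% of 15131 genes. Of the 35, 10 reached 1 FPKM through brain alone and 0 through primary neurons 1 alone. The count is therefore no support for a difference of the set. The 9 with a smaller difference included Gria1, Gria2, Grik2, Grik3, Grik4 and Grik5, and Gabra5 (-3.43), Grm7 (-3.01) and Grin3a (-2.64) were among the larger log2 differences. The astrocyte markers summed to 122 FPKM in primary neurons 1 and 332 in brain, and the neuronal markers to 1087 and 1873. In the same order, microglial markers summed to 45.2 and 61.1 FPKM, endothelial markers to 92.8 and 68.1, and oligodendrocyte markers to 28.9 and 136. The part of these cells in the differences was not tested. The median log2 difference of all genes in the comparisons of single libraries lay between 0.05 and 0.31 as deposited and between -0.08 and 0.01 after scaling. The share of higher genes among all genes with a log2 difference of 1 or more was 60.5% after scaling and 74.6% as deposited for TauEGFP+ colonies 1 against fibroblasts 1, and 64.4% and 78.3% against FICB cells.

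Genes that work with these receptors were counted the same way, from lists that were chosen with earlier results of these data known. A listed gene could enter a count through the library where it was high. The counts here and in the paragraph that follows are therefore no support for a difference of a list. Over all genes at 1 FPKM, 25.2% were higher and 8.56% lower in TauEGFP+ colonies 1 than in fibroblasts 1, 24.7% and 14.5% than in primary neurons 1, and 19.7% and 21.0% in TauEGFP+ colonies 2 than in the library labelled primary neurons 2. Of 15 genes for auxiliary subunits of AMPA and kainate receptors, which set receptor traffic and gating, 12 reached 1 FPKM in TauEGFP+ colonies 1 or fibroblasts 1 and 9 were higher in TauEGFP+ colonies 1 and 0 lower, with Cacng4 (27.5 against 0.4504 FPKM) and Cnih3 (11.7 FPKM, listed at 0 in fibroblasts 1) the largest. In TauEGFP+ colonies 1 against primary neurons 1, 0 of 15 were higher and 9 lower, led by Cnih2 at 54.9 against 228 FPKM. In TauEGFP+ colonies 2 against the library labelled primary neurons 2, 7 of 14 were higher and 4 lower. Cacng7, an auxiliary subunit too, differed by less than 2-fold from fibroblasts 1, at 29.996 against 23.4 FPKM. Of 22 genes for the excitatory postsynaptic scaffold, 14 were higher in TauEGFP+ colonies 1 than in fibroblasts 1 and 0 lower, with the kinase subunit Camk2b at 19.4 against 0.197 FPKM, and Dlg4, the gene of PSD-95, within 2-fold at 68.6 against 39.7. Against primary neurons 1, 1 of the 22 was higher (Dlg1) and 8 lower, and in TauEGFP+ colonies 2 against the library labelled primary neurons 2, 9 of 21 were higher and 4 lower. Of the 6 listed genes for the inhibitory postsynapse, 4 were higher in TauEGFP+ colonies 1 than in fibroblasts 1, among them Gphn, the gene of the scaffold gephyrin, at 9.93 against 2.88 FPKM, and Lhfpl4, which links the receptor to it, at 12.4 against 0.164. Against primary neurons 1, 0 of the 6 were higher and 1 lower, and 1 of 5 was higher and 0 lower in TauEGFP+ colonies 2 than in the library labelled primary neurons 2. Gabarap, which acts in receptor traffic and in autophagy, had 311 FPKM in TauEGFP+ colonies 1 and 309 in fibroblasts 1.

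Both GABA-B receptor genes, whose products act through G proteins, were higher in TauEGFP+ colonies 1 than in fibroblasts 1. Gabbr1 had 92.5 against 16.7 FPKM, and Gabbr2 had 4.17 FPKM and was listed at 0 in fibroblasts 1. With the delta and glycine receptor genes, 6 of 6 genes at 1 FPKM were higher in that comparison, against 25.2% of all genes. Against primary neurons 1, 1 of 7 was higher (Glra1) and 1 lower (Glra2), against 24.7% and 14.5% of all genes. In TauEGFP+ colonies 2, 6 of 6 were higher than in the library labelled primary neurons 2, against 19.7%. Of 11 genes for transmitter synthesis, release and uptake at 1 FPKM, 9 were higher in TauEGFP+ colonies 1 than in fibroblasts 1 and 0 lower. In this list 0 of 13 were higher and 5 lower in TauEGFP+ colonies 1 than in primary neurons 1, and 6 of 13 were higher and 5 lower in TauEGFP+ colonies 2 than in the library labelled primary neurons 2. Gad1, which makes GABA, had 25.3 FPKM in TauEGFP+ colonies 1, 11.3 in FICB cells, 32.2 in primary neurons 1, 43.2 in brain and 0 in fibroblasts 1. Slc17a6 and Slc17a7, the vesicular glutamate transporters, had 9.25 and 0.959 FPKM in TauEGFP+ colonies 1, 11.3 and 3.55 in FICB cells, 8.89 and 8.51 in primary neurons 1, 23.9 and 106 in brain and 0 and 0.377 in fibroblasts 1. The largest difference from primary neurons 1 in this list was that of Slc6a11, a GABA transporter, at 0.445 FPKM in TauEGFP+ colonies 1 against 19.2. Of the chloride transporters that set the direction of the GABA response, Slc12a5 (the exporter KCC2) had 9.43 FPKM in TauEGFP+ colonies 1, 9.16 in FICB cells, 4.46 in primary neurons 1, 45.7 in brain and 0.435 in fibroblasts 1. Slc12a2 (the importer NKCC1) had 14.9, 3.74, 6.15, 7.33 and 9.41 FPKM in these libraries. Tubb3 and the inhibitory synapse genes Insyn1 and Insyn2a were not analysed here.

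Few receptor genes reached 1 FPKM in XEN-like cells, the stage before the neuronal cells, and 1 stood out. Of 41 genes, 8 reached 1 FPKM in at least 1 of the 8 XEN-like colonies. In the 5 libraries of the 2 lines 10 did so, in the 2 fibroblast libraries 11, and in the eXEN library 2 (Grik3 and Grik5). Such counts can grow with the number of libraries and do not compare the groups. A single colony held 2 to 6 of the genes at 1 FPKM, a single line library 2 to 6, and the fibroblast libraries 4 and 11. Of all genes in the table, 56.2% to 57.8% reached 1 FPKM in single colonies, and 57.6% and 60.03% in the fibroblast libraries. The gene that stood out was Grik3, the sole receptor gene at 10 FPKM in any of these XEN-like libraries. It ranged from 1.04 to 27.8 FPKM over the 8 colonies with a median of 9.59, and fibroblasts had 0.388 and 0.441 FPKM. Line F25 had 12.98, 4.799 and 11.4 FPKM at P5, P8 and P13, line s39 had 46.6 and 35.3 FPKM at P3 and P17, and eXEN cells had 9.18. All 8 colonies and all 5 libraries of the lines lay above both fibroblast libraries, and s39 lay above F25. The share of all genes that separate from the fibroblast libraries in this way was not computed.

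In a limma fit of the 16 libraries with a term for the flow cell, 8 receptor genes were tested, those that reached 1 FPKM in at least 2 libraries. In XEN-like colonies against fibroblasts, Grik3 was called higher and 2 of the 8 lower, against 17.8% and 16.8% of 14012 genes, and in the lines 1 higher and 2 lower, against 19.1% and 14.8%. Grik3 rose in XEN-like colonies by 2.85 ± 0.67 on the log2 scale (SE, limma, adjusted p = 0.003002) and in the lines by 3.66 ± 0.76 (limma, adjusted p = 0.00151). The 5 libraries come from 2 lines, and that fit counts libraries of a line as replicates. With 1 mean value for each line, an alternative added after seeing the data, the limma adjusted p in the lines was 0.0168 for Grik3 (3.66 ± 1.005), 0.0138 for Gria3 and 0.00684 for Grik5. Gria3 ranged from 0.3296 to 3.16 FPKM over the colonies (median 0.984), with 6.43 and 25.7 FPKM in fibroblasts. Grik5 ranged from 2.18 to 4.36 FPKM (median 3.31), with 9.17 and 22.9 FPKM in fibroblasts. Every colony and every library of the lines lay below both fibroblast libraries for these 2 genes. The share of all genes that do so was not computed either, so such separation is a description of these genes alone. Gria3 had a log2 difference of -2.68 ± 0.64 in colonies (SE, limma, adjusted p = 0.00331) and -2.90 ± 0.72 in the lines (adjusted p = 0.00529). Grik5 had -1.92 ± 0.41 in colonies (SE, limma, adjusted p = 0.00155) and -1.999 ± 0.46 in the lines (adjusted p = 0.00343). The second fibroblast library of this table, with the higher value of both genes, decided these calls in colonies: without it the limma adjusted p was 0.206 for Gria3 and 0.103 for Grik5, with log2 differences of -1.48 and -1.26, and that of Gria3 in the lines was 0.0713. On the HVN flow cells alone, which hold 1 of the fibroblast libraries, the adjusted p was 0.198 and 0.132 in colonies and 0.0745 and 0.0639 in the lines, and for Grik3 it was 0.00893 in colonies and 0.00231 in the lines. Scaling changed the split of all genes called in the lines to 1929 higher and 2690 lower, against 2674 higher and 2067 lower as deposited.

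The other 5 tested genes were not called. Grin1 ranged from 0.0674 to 4.81 FPKM over the colonies, with 0.522 and 0.325 in fibroblasts, with 7 of 8 colonies above both, and its log2 difference was 0.88 ± 0.53 (limma, adjusted p = 0.193). Grin2d had a limma adjusted p of 0.0427 in colonies and 0.00916 in the lines, with log2 differences of -0.58 and -0.91 that were under the size threshold. For Grin2d 7 of 8 colonies and 5 of 5 line libraries lay below both fibroblast libraries. Gabre and Grin2a overlapped fibroblasts in both comparisons.

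**Figure D5:**
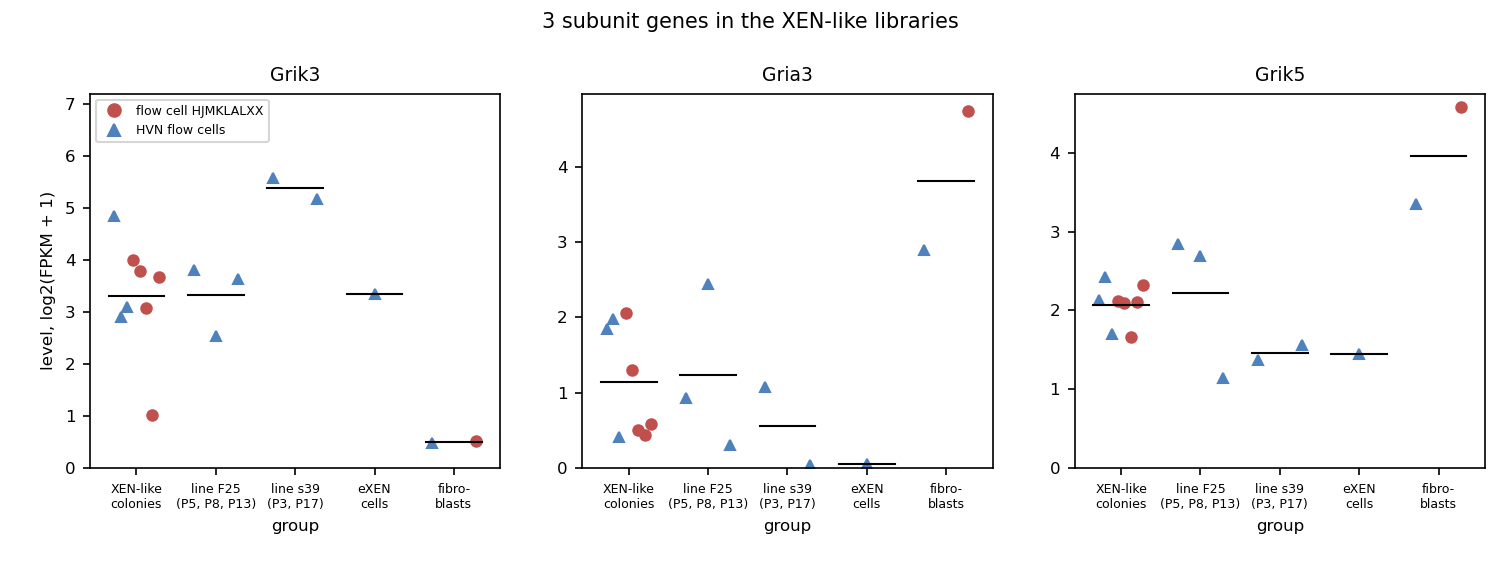
Level of Grik3, Gria3 and Grik5 as log2(FPKM + 1) in each library of the XEN-like table, with a line at the mean of each group and symbols by flow cell (circles for HJMKLALXX, triangles for the HVN codes). All 8 colonies and 5 line libraries lie above both fibroblast libraries for Grik3 and below both for Gria3 and Grik5.

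Grik3 lies on chromosome 4 (mm10, 125490700 to 125714173, plus strand). Its promoter is shown because Grik3 is the receptor gene that rose in XEN-like cells. The bases before its start (RefSeq, GRCm38.p6, chr4:125490446-125490695, plus strand, 5′ to 3′) follow, with GC boxes (GGGGCGG) in capitals.
Grik3: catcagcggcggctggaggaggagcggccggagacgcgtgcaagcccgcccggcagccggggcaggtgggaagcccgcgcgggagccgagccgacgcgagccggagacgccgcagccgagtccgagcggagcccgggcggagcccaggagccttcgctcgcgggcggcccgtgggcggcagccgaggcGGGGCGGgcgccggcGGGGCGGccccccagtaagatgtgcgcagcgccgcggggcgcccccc
The GC box, a motif bound by SP1-type factors, was searched on both strands. The window held it at positions -62 to -56 and -47 to -41 from the RefSeq start. It held 42 CpG dinucleotides, against a median of 6 over all 32851 windows and 8 over the 38 windows of receptor genes, and 82% G and C, against a median of 52.4%. A GC box was found in 21% of all windows and in 8 of the 38, those of Gabre, Gabrg3, Gabrq, Gabrr1, Grik3, Grik5, Grin2c and Grm2. A match is a description of the letters and no factor was measured.

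In the P24 library 2 of the 44 genes reached 1 FPKM, Grin1 at 1.51 and Grik5 at 1.44 FPKM, and 28 were listed at 0, among them Gria1, Grik1, Grik2, Gabra2 and Gabra3. The genes summed to 6.05 FPKM there. The library labelled P24 held the hepatocyte markers at a sum of 2917 FPKM and the neuronal markers at 10.9, with 5 of 5 and 4 of 9 genes at 1 FPKM. It stands alone in its table, so no difference from other libraries is given.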

How the data were processed

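Poly-A RNA libraries were made with the NEBNext Ultra kit, per the labels' protocols, and the mm10 genome and TopHat2 are named for mapping in the submitters' processing notes. The counting tool, annotation, filters and strand setting are not given in the sources used here. Values are FPKM as deposited by the authors. For the first neuronal table a header names this unit, and elsewhere it was judged from the values. The tables of hepatic cells were not used here. Depth is unknown apart from an apparent value from the smallest values of single-exon genes.

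Members and gene lists were chosen with earlier results of these data known. Some members are counted but not reported here by name. Any other member could be named, and those reaching 10 FPKM in any of 7 neuronal libraries, and the top 3 of each family, are given by library. From each pathway list up to 4 genes were named, by size of difference, and some that did not move. Single libraries were compared on log2(FPKM + 1) of genes at 1 FPKM in either, without a test. Replicated groups were fitted with limma 3.58.1 (R 4.3.3) on log2(FPKM + 1) of genes at 1 FPKM or more in 2 libraries, with Benjamini-Hochberg adjustment over all genes, and calls required an adjusted p under 0.05 with a log2 difference of 1 or more. Libraries labelled TauEGFP+ colonies and primary neurons were fitted with the table as block, which carries the replicate number, because values were normalised per table. The fit was tested on simulated data. Alternatives were another pseudocount (0.1), filter, size threshold, median-ratio scaling, the flow cell, leaving out libraries and, added after seeing the data, 1 mean value a line. Coordinates come from GENCODE vM21 and promoters from RefSeq GRCm38.p6. Python 3.11.15 and pandas 2.3.3 were used.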

Additional observations from a re-analysis of the deposited data

Results flagged for a closer look

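The 8 XEN-like colonies were checked for a library far from the others, at the highest and at the lowest value of 7 receptor genes tested in that table. Grin2d stood at 1.45 FPKM in XEN-like colony 3, with the next colony at 0.858 FPKM. The gap to the nearest colony exceeded Dixon's critical value, which chance alone exceeds in about 1 in 20 groups, and 14 ends were checked. Without colony 3 Grin2d was not called in colonies against fibroblasts, as with all 8.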

How the results depend on the processing

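Of the counts of receptor genes, 105 values under alternatives stayed within 1.5 times the reported count and 15 did not. Many of the 105 were counts of 0 or 1 with little room to move. In the fit of TauEGFP+ colonies against primary neurons, 0 of all genes were called under every setting. The tally is therefore no measure of how stable the counts are. At a log2 difference of at least 2, 9 receptor genes were higher in TauEGFP+ colonies 1 than in fibroblasts 1, 2 higher and 1 lower than in FICB cells, and 0 higher and 2 lower than in primary neurons 1. At that size 5 were higher and 2 lower in TauEGFP+ colonies 2 than in the library labelled primary neurons 2, and 10 lower in primary neurons 1 than in brain. With a pseudocount of 0.1, 2 were lower in FICB cells than in fibroblasts 1, and with median-ratio scaling 7 were higher in TauEGFP+ colonies 1 than in FICB cells. The cause was not tested. In XEN-like colonies 0 receptor genes were called lower on the HVN flow cells alone, and the counts over libraries left out ranged from 0 to 2. In the lines 5 were called lower with median-ratio scaling, 0 on the HVN flow cells alone, and 1 to 2 over libraries left out. Grin2d in the lines was called with a pseudocount of 0.1 (log2 difference -1.69, limma adjusted p = 0.0173) and with scaling (-1.09, adjusted p = 0.00266), and Gabre there with scaling (adjusted p = 0.0326). Grik3 kept its call under all 16 alternatives in colonies and all 14 in the lines, with limma adjusted p up to 0.0496 and 0.0461. The median log2 difference of TauEGFP+ colonies against the libraries labelled primary neurons, -0.13, reversed to 0.38 without replicate 1 and was -0.61 without replicate 2. Against fibroblasts 1 the median was 3.74 with a pseudocount of 0.1 and 0.85 with no filter in TauEGFP+ colonies 1, and 2.75 and 0.33 in FICB cells.

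Same-numbered libraries labelled TauEGFP+ colonies and primary neurons did not deviate together (r = -0.102 over 13625 genes). With no replicate block limma called 0 receptor genes higher and 0 lower, with 2 receptor genes (Gabra3 and Gria1) and 859 genes in all at an unadjusted p under 0.05. With the numbers crossed, an alternative chosen after seeing the data, it called 0 of 13625 genes, with 3 receptor genes (Gabra3, Gria1 and Gria4) and 990 genes in all at an unadjusted p under 0.05. No paired analysis was possible for the single-library comparisons because each group had 1 library.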
